A study of Mus musculus with 6 samples.

Results

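The interferon-induced transmembrane (Ifitm) genes were examined in the urogenital ridge of mouse embryos with and without Wt1. The members were taken as every array probe whose platform symbol was Ifitm1, Ifitm2, Ifitm3 or Ifitm5. This gave 3 probes of 20289, 1 each for Ifitm1, Ifitm2 and Ifitm3, while no probe was named as Ifitm5. The family was chosen by the known decrease of Ifitm1 between wild type and knockout on these arrays, so the members' differences between the genotypes are given as descriptions, without a test. The study measured total RNA on 6 single-colour CodeLink arrays, 3 of wild-type Mf1 ridges and 3 of Mf1 ridges homozygous for a deletion of the Wilms tumour gene Wt1, all at E11.5, with no treatment named in the labels. Each array is labelled as a pool from 5 embryos, 4 female and 1 male, at 11 to 12 tail somites. The series description speaks of 5 embryos and 3 measurements per genotype and does not say that the arrays came from separate pools, so every spread and p-value here may be technical.

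The Ifitm proteins are small membrane proteins with a conserved CD225 domain. They sit in the plasma membrane and in endosomes, where they hinder the fusion of enveloped viruses with the cell, and in many cells interferon raises their transcription. In the mouse embryo the same family is known under the names Fragilis and Mil. Ifitm3 (Fragilis) and Ifitm1 (Fragilis2) are used as markers of early primordial germ cells, which settle in the gonadal part of the urogenital ridge, and both are also made by mesoderm and other somatic cells. Ifitm5 is known chiefly from bone-forming cells.

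In the RefSeq gene order of mouse chromosome 7, Ifitm5, Ifitm2, Ifitm1, Ifitm3 and Ifitm6 follow each other with no other protein-coding gene between them. The stretches just before the annotated starts are shown here, from the RefSeq promoter table (build GRCm38.p6), because these genes lie side by side and differed in how their signal compared between the genotypes. Capitals mark matches to 3 motifs, the ISRE core (interferon-stimulated response element, read as GAAA, any 2 bases, GAAA), the TCF/LEF core CTTTGA and the WT1/EGR motif in the loose form GNGTGGGNG. Both strands were searched, and CTTTGA appears as its reverse complement in Ifitm1.
Ifitm1, chr7:140967826-140968075, plus strand: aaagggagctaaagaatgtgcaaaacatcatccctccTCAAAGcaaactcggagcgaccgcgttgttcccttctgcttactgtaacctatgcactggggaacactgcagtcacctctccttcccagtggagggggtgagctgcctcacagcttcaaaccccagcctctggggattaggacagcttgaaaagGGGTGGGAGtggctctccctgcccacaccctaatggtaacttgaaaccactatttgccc
Ifitm2, chr7:140955962-140956211, minus strand: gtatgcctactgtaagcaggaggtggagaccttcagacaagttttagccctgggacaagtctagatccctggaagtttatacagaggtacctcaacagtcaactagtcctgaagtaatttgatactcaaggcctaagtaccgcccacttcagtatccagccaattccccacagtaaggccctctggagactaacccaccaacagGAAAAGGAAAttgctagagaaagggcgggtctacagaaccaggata
Ifitm3, chr7:141010745-141010994, minus strand: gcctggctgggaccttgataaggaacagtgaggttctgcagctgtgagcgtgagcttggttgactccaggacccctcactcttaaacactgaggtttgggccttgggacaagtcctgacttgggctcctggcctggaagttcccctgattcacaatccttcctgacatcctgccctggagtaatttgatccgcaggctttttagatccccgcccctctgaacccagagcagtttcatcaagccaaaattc
Ifitm3 past its start, chr7:141010716-141010742, minus strand: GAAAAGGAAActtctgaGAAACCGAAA

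Each window searched was 300 bases long and began 250 bases before the start. Ifitm2 held 1 ISRE core, at -46 to -37 from the start. Ifitm3 held 2, at 3 to 12 and 20 to 29 past the start, and the first of them has the same 10 letters as the one in Ifitm2 (GAAAAGGAAA). Ifitm1 and Ifitm5 held none in this window. Of 32851 promoter entries in the table, 3.44% held an ISRE core. The GAS motif TTCNNNGAA (the gamma-activated site) was found once in Ifitm3, at 14 to 22 past the start, where it overlaps the second ISRE core, and 8.3% of all entries held it. The TCF/LEF core CTTTGA was found once in Ifitm1, at -213 to -208, and once in Ifitm5, and in 16% of all entries, while its other form CTTTGT, present in 18.7%, was in no member's window. The WT1/EGR motif GCGTGGGNG, present in 1.9%, was in no member's window. The loose form GNGTGGGNG, which was searched after the promoter letters had been seen and which 14.3% of all entries hold, matched once in Ifitm1, at -59 to -51, and in no other member. These matches describe letters in a window and do not show binding.

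Ifitm1 had the largest difference of the family. Its deposited intensities (linear, scaled per array by the authors) were 106, 112 and 96.0 in wild type and 30.3, 30.1 and 30.7 in the knockout. Every knockout array lay below every wild-type array, and the knockout arrays were close together. The means were 105 ± 8.01 and 30.4 ± 0.261 (SD, n = 3 each), so 29.1% of the wild-type signal remained, a log2 change of -1.78 ± 0.08 (SE).

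Ifitm2, the protein-coding gene next to Ifitm1 on the chromosome, was also lower in the knockout. Its intensities were 58.2, 58.2 and 52.7 in wild type and 29.4, 29.8 and 28.1 in the knockout. The genotypes did not overlap here either. This gave means of 56.4 ± 3.19 and 29.1 ± 0.899 (SD, n = 3 each) and left 51.6% of the wild-type signal, a log2 change of -0.95 ± 0.07 (SE).

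Ifitm3 had the smallest difference. Its intensities were 33.0, 32.0 and 32.0 in wild type and 28.3, 32.3 and 31.9 in the knockout. Knockout array 1 was the lowest of the 6, and the other 2 knockout arrays lay at the wild-type level. Mean intensity was 32.3 ± 0.601 in wild type and 30.8 ± 2.20 in the knockout (SD, n = 3 each), and the log2 change was -0.07 ± 0.07 (SE).

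**Figure D1:**
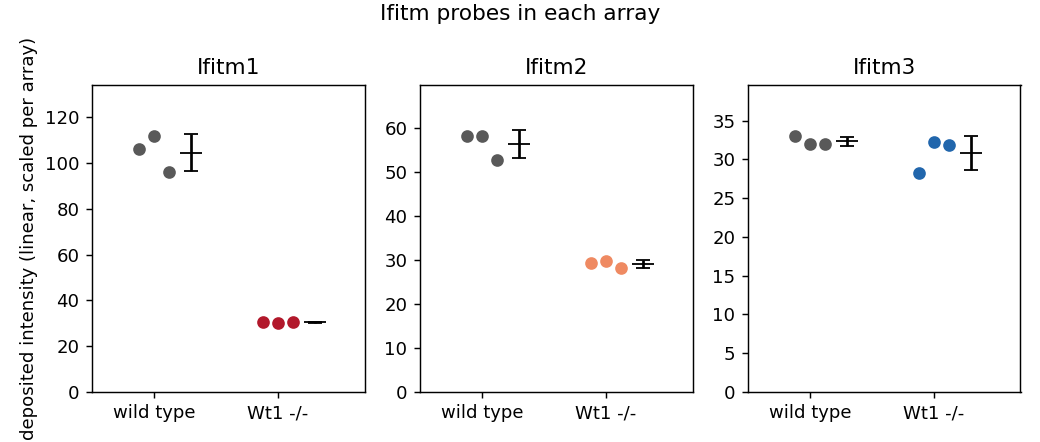
Deposited intensity (vertical axis, linear, scaled per array) of the probes for Ifitm1, Ifitm2 and Ifitm3 in the 3 wild-type and 3 Wt1 -/- arrays, 1 point per array; the bar beside each group gives the mean ± SD. The groups are apart for Ifitm1 (96.0 to 112 against 30.1 to 30.7) and Ifitm2 and overlap for Ifitm3; each panel has its own scale, and levels are not comparable between probes.

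All 3 probes passed the filter on dim signal. The genes around them were called at an adjusted p under 0.05 in the limma fit over all 15062 tested probes. Ifitm1 and Ifitm2 lay past that threshold and Ifitm3 did not, which is no test of the family, since it was chosen for the decrease of Ifitm1 on these arrays. The same rule called 41.3% of all tested probes, with 17.2% lower and 24.1% higher, and the genotypes did not overlap at 52.8%. Ranked from the largest decrease among the tested probes, Ifitm1 stood at place 75, Ifitm2 at 567 and Ifitm3 at 5350. The median log2 change of all tested probes was 0.09. All 3 members lay in the brightest eighth of the tested probes, where the median was 0.26, and quantile normalization took that median to -0.00024. Under quantile normalization the members' log2 changes were -2.02, -1.16 and -0.27, and Ifitm3 then lay past the threshold as well, as it did after cyclic loess at -0.25. Whether Ifitm3 counts as lower thus depended on the scaling, whereas Ifitm1 and Ifitm2 were lower in all settings tried.

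**Figure D2:**
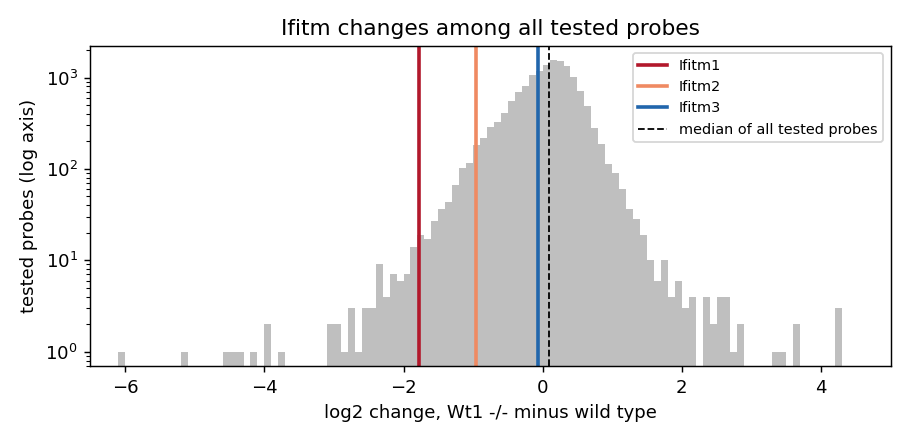
Distribution of the log2 change (horizontal axis, Wt1 -/- minus wild type) over the 15062 tested probes, with the number of probes on a log axis. Coloured lines mark Ifitm1 at -1.78, Ifitm2 at -0.95 and Ifitm3 at -0.07, and the dashed line the median of all tested probes at 0.09.

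The unequal change of the paralogues was also read within each array, where the scaling of the array as a whole cancels. The log2 intensity of Ifitm1 minus that of Ifitm3 was 1.68, 1.81 and 1.58 in wild type and 0.10, -0.10 and -0.06 in the knockout. The offset between probes has no meaning of its own, but it moved by -1.71 from wild type to knockout, against an SD between arrays of 0.11 in either genotype. The fold decrease of Ifitm1 was thus 3.27 times the fold decrease of Ifitm3. Ifitm1 minus Ifitm2 moved by -0.83, from 0.89 ± 0.04 to 0.06 ± 0.06 (SD, n = 3 each), and Ifitm2 minus Ifitm3 by -0.88, from 0.80 ± 0.07 to -0.08 ± 0.12. In these arrays Ifitm2 lay about midway between its paralogues on the log2 scale. Under quantile and cyclic loess normalization the difference between the changes of Ifitm1 and Ifitm3 was -1.75 and -1.76. The paralogues have similar coding sequences, and the probes' own sequences were not used here, so cross-hybridisation between the 3 probes was not tested.

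The genes whose profile over the 6 arrays was most like that of Ifitm1 were found by the root mean square difference of log2 values, each centred on its own wild-type mean. Among 8257 candidate probes above the median signal in at least 1 genotype, the closest were Pappa, a protease that cleaves IGF-binding proteins (difference 0.0665), and Aebp1, a secreted carboxypeptidase-like protein of the matrix (0.0699). Aldh1b1, a mitochondrial aldehyde dehydrogenase, Evl, an Ena/VASP regulator of actin, and Txndc12, a thioredoxin-like protein of the endoplasmic reticulum, followed at 0.0907, 0.0917 and 0.0957. Cyp1b1, a cytochrome P450 that oxidises steroids and retinoids, Adgra2, an adhesion G protein-coupled receptor, and Cyb5rl completed the 8 at 0.124 to 0.126. Cyp1b1, for example, had means of 8.91 ± 0.220 and 2.49 ± 0.293 (SD, n = 3 each), and Txndc12 of 12.1 ± 0.565 and 3.26 ± 0.169. These genes were chosen for their likeness to Ifitm1, so their decrease is no separate result. For comparison, 273 candidates were closer to Ifitm1 than Ifitm2 was (difference 0.586), and 3035 were closer than Ifitm3 (1.21).

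**Figure D3:**
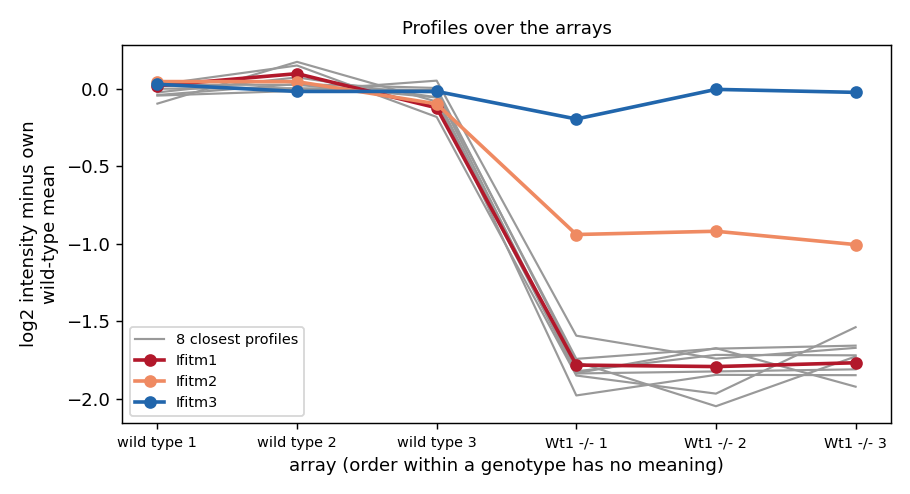
Log2 intensity minus the probe's own wild-type mean (vertical axis) in each of the 6 arrays for Ifitm1, Ifitm2 and Ifitm3, with the 8 genes closest to Ifitm1 in grey; lines only join the points of a probe. In the knockout arrays Ifitm1 and its closest genes lie near a log2 change of -1.78 and Ifitm2 near -0.95, while Ifitm3 is clearly below its wild-type mean in knockout array 1 and near it in the other two.

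The genes on either side of the Ifitm run were then examined, since they share its place on the chromosome but not its sequence. Of these 16 protein-coding genes, 8 on each side, the array held 15, and 14 could be tested. In the limma fit 1 was called lower and 2 higher, and the remaining 11 were not called, where 41.3% of all tested probes were called. Sirt3, a mitochondrial deacetylase gene 5 places before Ifitm5, fell 2.14-fold from 4.68 ± 0.182 to 2.20 ± 0.158 (adjusted p = 2.95e-06). Cox8b, a muscle form of a cytochrome oxidase subunit, rose 3.28-fold from 0.240 ± 0.0670 to 0.768 ± 0.0785 (adjusted p = 0.000313). B4galnt4, a glycosyltransferase gene that follows Ifitm6 directly, was at least 1.72-fold higher, with its wild-type signal under the limit used for dim probes (adjusted p = 0.0267). The gene before Ifitm5, Pgghg, had means of 3.43 ± 0.114 and 3.47 ± 0.237 and was not called. The median log2 change of the tested neighbours was 0.02, against 0.09 over all tested probes. Under quantile and cyclic loess normalization 3 neighbours were called lower and 1 higher, and 1 was higher without knockout array 2 or without any 1 of the wild-type arrays.

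**Figure D4:**
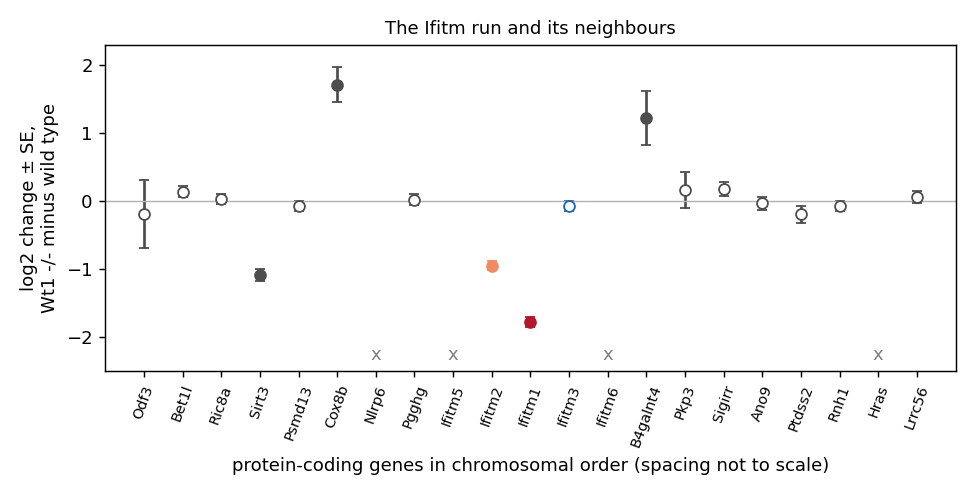
Log2 change ± SE (vertical axis, Wt1 -/- minus wild type) of the protein-coding genes of the Ifitm run and 8 on each side, in chromosomal order; filled points passed adjusted p under 0.05 and a cross marks a gene not on the array or not tested. Ifitm1 at -1.78 and Ifitm2 at -0.95 lie between Pgghg and Ifitm3, neither of them called, with B4galnt4 higher just after the run, and Sirt3 lower at -1.09 and Cox8b higher at 1.71 further out.

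Few other genes of the CD225 family could be read. The array held 3 of the 10 listed genes, and 2 could be tested. Neither was called in the limma fit, and 0 of the 2 had an unadjusted p under 0.05, although 1 was called lower without knockout array 1. Ifitm10 had means of 0.582 ± 0.0562 and 0.681 ± 0.0868, and Prrt2, a synaptic relative, of 4.06 ± 0.0301 and 3.58 ± 0.450 (SD, n = 3 each).

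Most interferon-stimulated genes that could be tested were not called. The array held 32 of the 40 listed genes and 19 could be tested, of which 2 rose, 2 fell and 15 were not called. Thus 21.1% were called, against 41.3% of all tested probes, and the list's median log2 change was 0.18 against 0.09. Several of the tested genes lay near the limit for dim probes, where changes are harder to call. Mx1, Ifit1 and Psmb9, named after their values were seen, had SEs of 0.42, 0.41 and 0.52 on the log2 scale. The low share called therefore does not show that these genes were unchanged. Ifih1, a sensor of double-stranded RNA, rose 2.14-fold from 0.689 ± 0.108 to 1.46 ± 0.104 (adjusted p = 0.000101, limma), and Xaf1, a promoter of apoptosis, rose 1.25-fold (adjusted p = 0.0131). Iigp1, an immunity-related GTPase, fell 1.72-fold from 1.09 ± 0.109 to 0.639 ± 0.0846 (adjusted p = 0.00164). B2m, the light chain of MHC class I, fell 1.46-fold from 52.6 ± 2.85 to 36.1 ± 1.45 (adjusted p = 0.000114). Isg15, Ifit3, Oas1a and Rsad2, chosen after their values were seen, were among the 13 genes too dim to be tested. Without knockout array 1 the number of genes called higher was 4, and without wild-type array 1 it was 1.

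Of the interferon receptors and their JAK-STAT signalling genes, 17 were tested, of which 4 fell and 2 rose (list median -0.17). The share called, 35.3%, was not above the 41.3% of all tested probes. By direction 23.5% were lower and 11.8% higher, against 17.2% and 24.1% of all tested probes. Both chains of the receptor for interferon gamma were lower. Ifngr1 fell 2.12-fold from 0.807 ± 0.131 to 0.395 ± 0.153 (adjusted p = 0.0058, limma), and Ifngr2 2.13-fold from 1.67 ± 0.196 to 0.781 ± 0.0653 (adjusted p = 4.74e-05). Stat2, which relays the type I interferon signal, fell 2.03-fold (adjusted p = 0.0381), while the kinase gene Tyk2 rose 1.33-fold (adjusted p = 0.00185). Ifnar1, a receptor chain for type I interferon that was named after its values were seen, had means of 12.3 ± 0.178 and 13.4 ± 0.0866 and was not called. Without knockout array 1, 7 of these genes were called lower, as under cyclic loess. Only 1 was called higher without knockout array 2 or 3 or wild-type array 2 or 3.

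Proteins that bind or modify Ifitm proteins went both ways. Of 11 tested, 4 rose, 3 fell and 4 were not called (median -0.12), or 36.4% higher and 27.3% lower against 24.1% and 17.2% of all tested probes. Zdhhc20 and Zdhhc7 encode palmitoyltransferases, enzymes that attach fatty acid to membrane proteins. Zdhhc20 fell 1.93-fold from 3.98 ± 0.446 to 2.06 ± 0.206 (adjusted p = 3.8e-05, limma), and Zdhhc7 rose 1.51-fold from 27.8 ± 1.14 to 41.9 ± 3.63 (adjusted p = 0.000133). The tetraspanin genes Cd151 and Cd9 fell 2.10-fold (adjusted p = 1.39e-05) and 1.64-fold (adjusted p = 0.00137). The brighter tetraspanin genes Cd81 and Cd63, named after their values were seen, did not follow them. Cd81 rose 1.42-fold from 80.7 ± 2.23 to 116 ± 21.0 (adjusted p = 0.00419), and Cd63 was not called at 41.1 ± 1.71 and 38.3 ± 6.16. The count of 4 that rose went to 1 under quantile and 2 under cyclic loess normalization.

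Germ cell genes were lower more often than higher. Of 13 tested, 7 fell, 2 rose and 4 were not called, so 53.8% were called lower against 17.2% of all tested probes, with a list median of -0.24. Dazl, whose protein binds RNA in germ cells, went from 0.656 ± 0.0506 to 0.224 ± 0.126 (SD, n = 3 each), at least 2.54-fold lower (adjusted p = 0.00539, limma). Dppa3 (Stella), which marks early germ cells together with the Fragilis genes, fell 1.51-fold from 5.25 ± 0.838 to 3.46 ± 0.405 (adjusted p = 0.00186). The alkaline phosphatase gene Alpl fell 1.89-fold (adjusted p = 0.000212) and the chromatin gene Utf1 1.85-fold (adjusted p = 0.000165). The 2 that rose, named after their values were seen, were Prdm1, a factor that specifies germ cells, 1.44-fold from 0.816 ± 0.0621 to 1.18 ± 0.138 (adjusted p = 0.00809), and the RNA-binding protein gene Lin28a, 1.25-fold from 4.62 ± 0.253 to 5.79 ± 0.223 (adjusted p = 0.00561). Pou5f1 and Ddx4, named after their values were seen, were not called, with means of 5.4 ± 0.145 and 5.5 ± 0.197 for Pou5f1. The summed intensity of 16 germ cell probes was 29.7 to 32.1 in wild type and 26.3 to 26.9 in the knockout, with 3 probes under the dim limit in both genotypes. In these bulk samples fewer germ cells, less RNA per cell and a lower signal of these genes from other cells cannot be told apart. Alpl is also on the osteoblast list read below. The part of germ cells in the lower Ifitm1 signal was not tested.

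Genes of other cells that may carry Ifitm transcripts moved in different ways; over all tested probes 17.2% were lower and 24.1% higher. On the coelomic epithelium list 4 of 9 tested genes fell and 1 rose. Its summed intensity was 61.1 to 63.0 in wild type and 44.3 to 45.5 in the knockout. Most of that decrease was the signal of Aldh1a1, 17.1 ± 0.784 against 2.13 ± 0.174, while Krt18, the brightest gene of the list, named after its values were seen, was not called at 27.2 ± 0.381 and 28.5 ± 0.324. The keratin gene Krt19 fell 1.63-fold (adjusted p = 9.93e-05, limma), beside the larger decreases of Muc16, at least 8.54-fold, and Aldh1a1, 8.02-fold. The 1 that rose, named after its values were seen, was Gata5, 1.29-fold from 4.72 ± 0.559 to 6.06 ± 0.305 (adjusted p = 0.0083). On the endothelial list 5 of 12 fell and 1 rose, with summed intensities of 104 to 107 and 98.0 to 103, and Pecam1 fell 2.49-fold from 0.801 ± 0.0578 to 0.340 ± 0.151 (adjusted p = 0.00253). The brighter receptor gene Kdr, named after its values were seen, rose 1.19-fold from 31.7 ± 1.16 to 37.7 ± 1.29 (adjusted p = 0.0127), and Tie1, likewise, was not called at 18.1 ± 0.452 and 19.5 ± 1.19. On the macrophage list 1 of 11 fell and 3 rose, with sums of 31.6 to 32.2 and 31.5 to 35.5. The 1 that fell was Coro1a, 1.43-fold from 2.65 ± 0.0537 to 1.86 ± 0.265 (adjusted p = 0.00233), and among those that rose was Aif1, 1.39-fold (adjusted p = 0.00141). None of 9 tested erythroid genes was called in the limma fit, where 1 had an unadjusted p under 0.05 (4 were called lower under quantile and under cyclic loess normalization), and their sums overlapped at 1752 to 1820 and 1756 to 1786. Leaving out 1 array moved the small counts. Without knockout array 1, 2 coelomic and 2 endothelial genes were called higher, 1 erythroid gene higher and 1 lower, and without wild-type array 2 no coelomic or endothelial gene was called higher. Only 1 macrophage gene was called higher without wild-type array 1 or 2, 2 were called lower without knockout array 2, and 1 erythroid gene was called lower without knockout array 3. The part of these cells in the Ifitm differences was not tested.

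Wnt signalling is known to act on Ifitm transcription in the early mesoderm, so a list of Wnt components and TCF/LEF targets was read beside the members. Of 14 tested, 6 fell, 1 rose and 7 were not called (median -0.25), so 42.9% were lower against 17.2% of all tested probes, and 50% were called against 41.3%. Sp5, a direct target of the pathway, fell 1.71-fold from 1.72 ± 0.0400 to 1.01 ± 0.0602 (adjusted p = 0.000126, limma), and the cyclin gene Ccnd1 1.74-fold (adjusted p = 0.0027). Tcf7l2, a TCF factor, fell 2.24-fold and the ligand gene Wnt4 2.15-fold. The 1 that rose, Cdx1, named after its values were seen, went 1.54-fold higher from 2.37 ± 0.287 to 3.67 ± 0.548 (adjusted p = 0.00166). With the probes of a gene averaged, 0 genes of the list were called higher. Lef1 and Myc, named after their values were seen, were not called, with log2 changes of -0.17 ± 0.09 and -0.02 ± 0.11 (SE). Nkd1, likewise, was not called at 14.3 ± 1.09 and 15.3 ± 1.10, and Axin2 was too dim to be tested. Genes of the presomitic and paraxial mesoderm were higher where they were called, but the list's median log2 change was 0.06, against 0.09 over all tested probes. Of 9 tested, 4 rose (44.4%, against 24.1% of all tested probes) and none fell in the limma fit, with 0 lower at an unadjusted p under 0.05, although 1 was called lower under quantile and 2 under cyclic loess normalization. Tcf15, a factor of somite epithelium, rose 2.05-fold from 6.26 ± 0.140 to 12.8 ± 0.805 (adjusted p = 1.6e-06), and Meox2 4.0-fold. The list's summed intensity was 99.1 to 105 in wild type and 118 to 131 in the knockout. Most of that rise was the signal of Foxc2, the brightest gene of the list, 51.3 ± 3.49 against 65.1 ± 5.22. Foxc1 and Pax3, named after their values were seen, were not called. Their means were 17.4 ± 0.683 and 16.2 ± 0.903 for Foxc1, and 12.8 ± 0.479 and 11.8 ± 0.615 for Pax3.

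**Figure D5:**
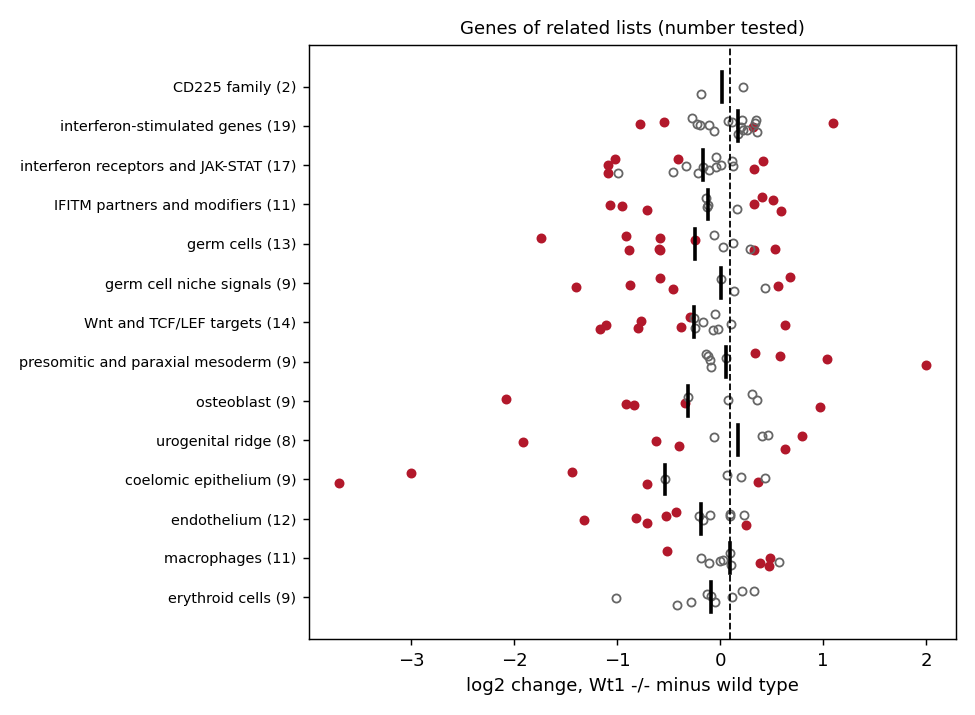
Log2 change (horizontal axis, Wt1 -/- minus wild type) of each tested gene of 14 lists, with filled points for adjusted p under 0.05, open points for genes not called and a black bar for the list median; the dashed line is the median of all tested probes at 0.09. Of the interferon-stimulated genes 4 of 19 were called (21.1%), and of the germ cell genes 9 of 13 (69.2%), 7 of them lower (53.8%). Over all tested probes 41.3% were called and 17.2% were lower.

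The deleted gene and the tissue were checked on the same arrays. Wt1 was lower in all knockout arrays on its brighter probe, 39.1 to 44.1 against 14.2 to 15.7. Its dimmer probe was lower as well, 0.785 to 0.951 against 0.134 to 0.466. The position of these probes relative to the deletion was not stated. The array held 10 of 11 ridge markers, and 8 could be tested. Lhx9, Emx2 and Nr5a1 had wild-type means of 4.23 ± 0.218, 6.12 ± 0.437 and 2.78 ± 0.111 (SD, n = 3 each), and Pax8 and Cbx2 were too dim to be tested. Of the 8, 3 were called lower and 2 higher, against 17.2% and 24.1% of all tested probes, and without knockout array 1 the number higher was 4. The list's median log2 change was 0.18, against 0.09 over all tested probes. Its summed intensity over 10 probes was 27.4 to 29.2 in wild type and 28.7 to 31.9 in the knockout. The 3 that fell were Lhx9, Emx2 and Nr5a1. Lhx9 fell 3.78-fold to 1.12 ± 0.0531 (adjusted p = 5.69e-08, limma) and Emx2 1.54-fold to 3.96 ± 0.218 (adjusted p = 0.000116). Nr5a1 fell 1.32-fold to 2.11 ± 0.0936 (adjusted p = 0.00287). The 2 called higher were Gata3, 1.73-fold (adjusted p = 1.43e-05), and Osr1, 1.55-fold (adjusted p = 0.000878). Gata4, a ridge marker named after its values were seen, was not called, with a log2 change of -0.06 ± 0.09 (SE). Pearson's r across probes was 0.986 between wild-type arrays, 0.974 between knockout arrays and 0.965 to 0.972 across the genotypes.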

How the data were processed

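Biotin-labelled total RNA was read on single-colour CodeLink arrays, per the labels' protocols. The authors deposited linear intensities, 1 per probe and array, whose medians lie at 0.956 to 0.966; their software and background correction are unknown (not given in the sources used here). Values under the 5th percentile of positive values (0.0811) were raised to that floor before log2. Probes with values on at least 2 arrays per genotype and a mean above the 25th percentile (intensity 0.217) were tested with limma 3.58.1 in R 4.3.3 (lmFit, eBayes with an intensity trend), 3 arrays against 3, with Benjamini-Hochberg adjustment over 15062 probes, two-sided, called at adjusted p under 0.05. The fit was tested on simulated data. Folds are 2 to the size of the log2 change. Where the lower genotype's mean of log2 values lay under the log2 of the dim limit, the fold is a lower bound set against that limit. The number of arrays limits the precision.

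Symbols came from the platform table that GEO gives, possibly outdated (15120 probes with 1 symbol, 38 with several, 5131 not listed), updated through Entrez identifiers in a RefSeq table of GRCm38.p6, where 56 named probes had no match. A list gene was read on its brightest probe without missing values. The 14 lists and the members were chosen with earlier results of these data known. Named are all members, Wt1, up to 4 genes per list (the called ones with the largest change, or the brightest where fewer than 2 were called), called neighbours, and the 8 and 4 genes closest in profile to Ifitm1 and Ifitm3. Some further genes were named after their values were seen. Normalization, floor, filter, variance prior, replicate block and left-out arrays were varied. Protein identity between the members was not computed here.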

Additional observations from a re-analysis of the deposited data

How the results depend on the processing

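The log2 changes of the members moved with the scaling between arrays. Under quantile normalization they were -2.02 for Ifitm1, -1.16 for Ifitm2 and -0.27 for Ifitm3, and under cyclic loess -2.01, -1.15 and -0.25, with 3 members past the threshold in place of 2. Leaving out 1 array at a time gave -1.84 to -1.73, -1.0 to -0.93 and -0.11 to -0.01, and the difference between the changes of Ifitm1 and Ifitm3 stayed between -1.77 and -1.65. Probes called over the array ran from 4790 to 7317 without 1 array and from 5368 to 6230 in the other settings, against 6221. Neighbours called lower were 3 under quantile and cyclic loess normalization; those called higher were 1 under both and 0 with the filter at the median probe, and 1 to 3 when 1 array was left out. With only the 250 bases before the start searched, Ifitm3 held 0 ISRE cores and 0 GAS motifs, since both lie past its start. Of 420 list counts under these alternatives, 385 stayed within 1.5 times the main count.

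The replicate numbers are shared by the genotypes but nothing says that they pair arrays, and the deviations of same-numbered arrays correlated at 0.00049, -0.02 and -0.0057. With the replicate block 6019 probes were called, and the members' log2 changes were the same as without it.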

Other observations

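Signals that guide and keep germ cells were read on a list of their own. Of 9 tested genes, 4 fell, 2 rose and 3 were not called in the limma fit (median log2 change 0.01), so 44.4% were lower and 22.2% higher, against 17.2% and 24.1% of all tested probes. Cxcl12, the chemokine that attracts germ cells to the ridge, fell 2.63-fold from 4.42 ± 0.209 to 1.69 ± 0.234 (adjusted p = 2.64e-06). Bmp2 fell 1.5-fold (adjusted p = 0.00011) and Wnt5a 1.84-fold (adjusted p = 0.0347). Igf1 rose 1.6-fold (adjusted p = 3.98e-05), and Kitl, the ligand of the Kit receptor, which was named after its values were seen, rose 1.48-fold from 35.3 ± 1.71 to 52.1 ± 2.01 (adjusted p = 8.05e-05).

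On the osteoblast list, read because no probe was named as Ifitm5, 4 of 9 tested genes fell and 1 rose (2 without knockout array 1). Thus 44.4% were lower and 11.1% higher, against 17.2% and 24.1% of all tested probes. Alpl, 1 of the 4 that fell, was also counted on the germ cell list. Col1a1 fell 4.24-fold and Col1a2 1.79-fold (adjusted p = 9.17e-06, limma), while Pth1r, the receptor for parathyroid hormone, rose 1.95-fold from 34.2 ± 1.2 to 66.9 ± 4.95 (adjusted p = 2.95e-06). Sp7, a defining osteoblast factor named after its values were seen, was dim at 0.755 ± 0.0691 and 0.608 ± 0.0797 and was not called.

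The probe closest in profile to Ifitm3 was that of Psmd13, a proteasome subunit gene that is also 1 of the neighbours before the Ifitm run. Its means were 32.3 ± 0.575 and 30.8 ± 1.83 (SD, n = 3 each), and its log2 values differed from those of Ifitm3 by a root mean square of 0.0149 over the 6 arrays. Slc25a23, Prkdc and Fech followed at 0.0215 to 0.0218.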
